A study of Rattus norvegicus with 24 samples.

Results

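Heat shock proteins and their DnaJ partners keep other proteins folded. Small heat shock proteins hold unfolded chains, the HSP70 proteins bind and release them in a cycle driven by ATP, and HSP90 proteins act on kinases, receptors and other late folding clients. DnaJ proteins carry the J domain, which starts ATP hydrolysis by HSP70, and the HSP110 relatives of HSP70 exchange its nucleotide. In the brain the heat-inducible members are known to respond to injury in glia and neurons, while several DnaJ proteins serve the clathrin coat and the synaptic vesicle. Members were taken by gene symbol, as every named locus whose symbol is an Hspa, Hspb, Hspd, Hspe, Hsph or Hsp90 symbol (and Hspbp1) or a numbered Dnaja, Dnajb or Dnajc symbol, with Hspg2 and Hspbap1 left out. This gave 68 genes among 26641 named loci. They were 8 small heat shock proteins, 13 HSP70 genes with the HSP110 relative Hsph1, 3 HSP90 genes, the mitochondrial pair Hspd1 and Hspe1, the HSP70 co-chaperone Hspbp1, and 41 DnaJ genes (4 of class A, 13 of class B and 24 of class C).

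Messenger RNA was sequenced from cortex around the lesion (perilesional cortex) and from thalamus on the same side (ipsilateral) of adult male Sprague-Dawley rats, 6 with traumatic brain injury (TBI) from lateral fluid percussion, in which a fluid pulse strikes the exposed dura, and 6 sham-operated controls, which were anaesthetised and operated on but not struck. Tissue was taken 3 months after surgery, 1 library for each rat and region and 24 in all, and rats are called by the numbers in their labels. The TBI rats had been selected by MRI for signs of chronic inflammation around the lesion, so they do not stand for all injured rats. Values are normalized counts, fragments per locus divided by a size factor of the library, from libraries of 30568927 to 54608922 fragments. Differences were tested by limma on log2(normalized count + 1), and a locus was called at a Benjamini-Hochberg adjusted p under 0.05 over all loci tested. The log2 scale with 1 added understates the change of low loci. Because the samples were pieces of whole tissue, fewer cells of a type and less RNA per cell cannot be told apart.

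One injured rat stood apart. In TBI rat 45 the 8 fibroblast and meningeal markers summed to 55808 in cortex and 53258 in thalamus, against at most 39729 and 6984 in the other TBI libraries, and the 8 choroid plexus markers summed to 32552 and 264501, against at most 1181 and 2120. Choroid plexus markers were also high in sham rats 34 and 50 in thalamus (69487 and 109618) and in sham rats 26 and 34 in cortex (23932 and 11388). Rat 45 held the highest of the TBI values for 19 of 62 tested members in cortex (30.6%) and 23 of 61 in thalamus (37.7%), beside 20.0% and 25.3% of all loci, and the lowest for 3 and 18, or 4.84% and 29.5% of the members beside 10.6% and 25.2% of all loci. Results that rest on it are given with and without it. For the labelled tissue, none of the 15 neuron markers was at or under 3 fragments throughout a group, and of the vesicular glutamate transporters Slc17a6 was higher in sham thalamus by 4.68 on the log2 scale and Slc17a7 lower (-2.70).

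Of the 68 members, 62 were tested in cortex and 61 in thalamus, being those with a mean of at least 10 normalized counts over the 12 libraries of a region. Hspb7 was left out in thalamus, and 6 members were tested in neither region. These were Dnajb7, Dnajb8, Hspa1b, Hspa8, Hspb3 and Hspb9, with means over 24 libraries from 0 to 6.18. Hspa1b, a heat-inducible HSP70 gene, was listed at 0 in all libraries at both of its loci. With at least 30568927 fragments in each library, these values were not taken as its level, and their cause was not tested. Hspa8, the constitutive HSP70 gene of the cytosol, is named here only at 2 low loci, with means of 6.18 on chromosome 5 and 2.00 on chromosome 11, while RefSeq places the gene on chromosome 8 of the GRCr8 build, so these loci were not taken as its level.

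Heat shock factor 1, the main activator of the heat-inducible members, binds repeats of the unit GAA in alternating direction. The 250 bases before the RefSeq start site (GRCr8 build) are shown for 5 members that were called after TBI and whose windows hold such repeats. They were chosen for holding them, to show how the repeats lie in members that rose and in members that fell. They do not include every such member, and the others, named below, all fell. The windows of Hspa4, Hspa12b and Hspb7 held none. That of Hspa4l, not shown, held none before the start, and a pair began at base 39 after it. Capitals mark 2 facing units (GAANNTTC or TTCNNGAA, each its own reverse complement) or 3 units (GAANNTTCNNGAA or its reverse complement), overlaps merged. Hspb1 (chr12:26432302-26432551, minus strand), Hspb8 (chr12:45837058-45837307, plus strand) and Hspa2 (chr6:100864192-100864441, plus strand) rose after TBI in both regions. Hspb6 (chr1:94934122-94934371, plus strand) fell in cortex and Hsph1 (chr12:10427118-10427367, plus strand) in both regions.
Hspb1: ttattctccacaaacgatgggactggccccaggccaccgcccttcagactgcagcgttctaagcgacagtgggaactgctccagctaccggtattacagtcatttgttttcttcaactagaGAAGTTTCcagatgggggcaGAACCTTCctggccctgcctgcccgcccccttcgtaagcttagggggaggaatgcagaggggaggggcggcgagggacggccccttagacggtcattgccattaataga
Hspb8: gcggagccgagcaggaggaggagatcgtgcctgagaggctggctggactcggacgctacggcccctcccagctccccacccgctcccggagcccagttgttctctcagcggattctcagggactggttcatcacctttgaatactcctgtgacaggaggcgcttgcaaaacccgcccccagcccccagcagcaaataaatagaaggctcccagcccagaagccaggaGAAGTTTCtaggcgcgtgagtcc
Hspa2: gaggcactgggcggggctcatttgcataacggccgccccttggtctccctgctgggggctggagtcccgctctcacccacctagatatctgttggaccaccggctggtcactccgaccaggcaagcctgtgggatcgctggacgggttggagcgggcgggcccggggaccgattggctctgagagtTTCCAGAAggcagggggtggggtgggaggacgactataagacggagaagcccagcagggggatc
Hspb6: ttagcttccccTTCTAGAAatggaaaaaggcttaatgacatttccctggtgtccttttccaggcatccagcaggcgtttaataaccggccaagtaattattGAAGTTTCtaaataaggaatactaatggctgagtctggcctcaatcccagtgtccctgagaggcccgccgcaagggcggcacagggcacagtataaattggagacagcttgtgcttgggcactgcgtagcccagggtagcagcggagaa
Hsph1: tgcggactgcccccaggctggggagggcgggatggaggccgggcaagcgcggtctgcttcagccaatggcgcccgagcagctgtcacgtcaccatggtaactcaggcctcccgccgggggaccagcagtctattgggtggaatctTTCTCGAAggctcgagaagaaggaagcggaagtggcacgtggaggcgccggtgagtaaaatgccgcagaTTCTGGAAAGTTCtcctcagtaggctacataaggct

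In these windows a pair began 129 and 109 bases before the start in Hspb1, 23 bases before it in Hspb8, 64 bases before it in Hspa2, and 239 and 149 bases before it in Hspb6. Hsph1 held a pair 105 bases and a run of 3 units 36 bases before the start. RefSeq windows of 300 bases, 250 before to 50 after the start, were matched to 54 of the 68 members. A pair occurred in 15 of these (27.8%), against 4233 of all 27457 windows (15.4%). Runs of 3 units occurred in 5 (9.26%), against 202 of all windows (0.736%). The 5 were Dnaja1, Hspa8, Hspd1, Hspe1 and Hsph1, where Hspd1 and Hspe1 are transcribed away from each other and their windows share 1 run. Of these 5, the 4 that could be tested had log2 fold changes below 0 in both regions, of which Dnaja1, Hspd1 and Hsph1 passed the threshold in cortex and Hsph1 in thalamus. Values below 0 were common among all tested members, 48 of 62 in cortex and 44 of 61 in thalamus. Over all loci they were 8031 of 15493 and 8354 of 15564. Pairs were present in Hspb1, Hspb8 and Hspa2, which rose. They were also present in Hspb6, Hsph1, Hspa4l, Dnaja1, Hspd1, Dnajc18 and Dnajc27, which fell in at least 1 region. The other members with a pair were not called or not tested. Among all tested members, with or without a pair, 4 were called higher and 20 lower in cortex. In thalamus 5 were called higher and 17 lower.

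After TBI, more members fell than rose. In cortex 4 of 62 tested members were higher in TBI rats and 20 lower, against 14.3% of all loci higher and 14.9% lower. In thalamus 5 of 61 were higher and 17 lower, against 14.5% and 20.9% of all loci. The share of members called lower was 32.3% in cortex and 27.9% in thalamus. The median log2 fold change of tested members was -0.13 in cortex and -0.080 in thalamus, beside -0.0096 and -0.023 over all loci. By class, the medians in cortex and thalamus were 0.34 and 0.33 for small heat shock proteins, -0.13 and -0.13 for HSP70, -0.081 and -0.013 for HSP90 and -0.14 and -0.080 for DnaJ genes. Of the small class only Hspb1 and Hspb8 were called higher. Its thalamic median was the value of Hspb2, which was 0.031 without rat 45. Its cortical median lay between the values of Hspb2 and Hspb7, neither of which was called. Among the 61 members tested in both regions, 16 were called in both, 4 higher and 12 lower, and none in opposite directions. Without rat 45 the counts were 4 higher and 18 lower in cortex and 5 higher and 18 lower in thalamus. A count model on the recovered fragments (edgeR) called 4 higher and 19 lower members in cortex, and 5 higher and 14 lower in thalamus, where it put 44.9% of all calls lower in place of 59.0%.

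**Figure D1:**
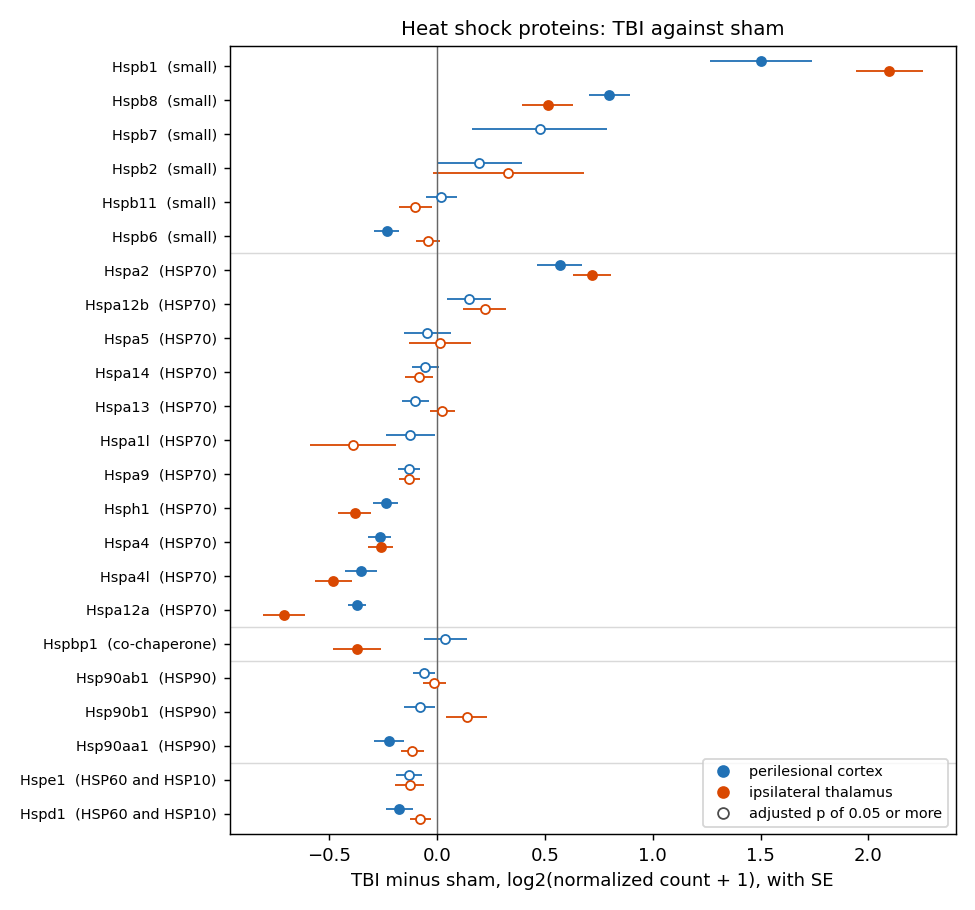
Change of each tested heat shock protein gene outside the DnaJ class after TBI. The x axis is the log2 fold change, TBI minus sham, of normalized count + 1, points are estimates with 1 SE over 6 TBI and 6 sham rats, blue is perilesional cortex and orange ipsilateral thalamus, and filled points passed the threshold. Hspb1, Hspb8 and Hspa2 lie to the right in both regions and Hsph1, Hspa4, Hspa4l and Hspa12a to the left.

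Among the small heat shock proteins, Hspb1 and Hspb8 rose in both regions. Hspb1 (chr12:25837083-25838661 as listed, where the processing notes name the Rnor_5.0 build and the study's methods name RGSC3.4 as genome with a Rnor_5.0 annotation), which encodes HSP27, a chaperone that also guards actin filaments, had the largest rise of all tested members in both regions. In cortex it ranged from 152 to 299 with a median of 223 in sham rats and from 381 to 1096 with a median of 569.9 in TBI rats. In thalamus it ranged from 206 to 330.2 with a median of 237 in sham rats and from 733 to 1479 with a median of 1067 in TBI rats. Every TBI library lay above every sham library of its region. The log2 fold change was 1.50 (SE 0.24, adjusted p = 0.000388) in cortex and 2.10 (SE 0.16, adjusted p = 4.41e-07) in thalamus, which is 2.83-fold and 4.27-fold. The TBI effect in thalamus minus that in cortex, called the interaction, was 0.59 (SE 0.31, adjusted p = 0.257) and did not pass. Rat 45 held the highest value in both regions, and without it the log2 fold changes were 1.34 (adjusted p = 0.000604) and 2.00 (adjusted p = 4.96e-07). The TBI rats spread more widely in cortex (SD 281 around a mean of 672) than the sham rats (SD 59.0 around 227).

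Hspb8 (chr12:47717761-47731882), the small heat shock protein that works with the co-chaperone Bag3 to deliver clients to autophagy, ranged from 801 to 983 with a median of 911 in sham cortex and from 1386 to 2147 with a median of 1504 in TBI cortex. In thalamus the range was 1188 to 1360.3 (median 1265) in sham and 1483 to 2736 (median 1718) in TBI rats. The groups did not overlap in either region, and the log2 fold changes were 0.80 (SE 0.095, adjusted p = 4.12e-05) and 0.51 (SE 0.12, adjusted p = 0.00393). Rat 45 lay far above the other TBI rats, at 2147 in cortex and 2736 in thalamus. Without it the log2 fold changes were 0.71 (adjusted p = 8.25e-06) in cortex and 0.39 (adjusted p = 0.000586) in thalamus, and the rise was then smaller in thalamus than in cortex by 0.31 (adjusted p = 0.0433). With rat 45 that difference was -0.28 (SE 0.16, adjusted p = 0.303). Bag3 itself rose by 0.60 (adjusted p = 0.0164) and 0.32 (adjusted p = 0.0447) on the log2 scale.

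None of the other small heat shock proteins was called higher. Hspb6, known as HSP20, fell in cortex, with a range of 1133 to 1378 in sham and 1029.6 to 1206 in TBI rats, a log2 fold change of -0.23 (SE 0.058, adjusted p = 0.00773), and 5 of 6 TBI rats lay below all sham rats. In thalamus its log2 fold change was -0.043 (SE 0.054, adjusted p = 0.576), and the interaction was 0.19 (SE 0.076, adjusted p = 0.126). Hspb11, a subunit of the transport machinery of cilia, had log2 fold changes of 0.02 (SE 0.073, adjusted p = 0.864) and -0.10 (SE 0.076, adjusted p = 0.323). Hspb2 and Hspb7, known from heart and skeletal muscle, were low. Hspb2 ranged 29.0 to 63.5 in sham and 38.1 to 76.5 in TBI cortex, and 6.37 to 14.7 in sham and 8.45 to 38.6 in TBI thalamus, with log2 fold changes of 0.20 (SE 0.20, adjusted p = 0.487) and 0.33 (SE 0.35, adjusted p = 0.499). The high thalamic value was rat 45, and without it the log2 fold change there was 0.031 (adjusted p = 0.944). The locus of Hspb2 has the same listed span as that of the small heat shock protein Cryab (chr8:53773886-53779782), and whether the counting used strand is not given in the sources used here, so its values are uncertain. Hspb7 was tested in cortex alone, 0.47 (SE 0.31, adjusted p = 0.276), and without rat 45, which stood at 38.2 against at most 19.0 in the other TBI rats, the value was 0.29 (adjusted p = 0.521).

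**Figure D2:**
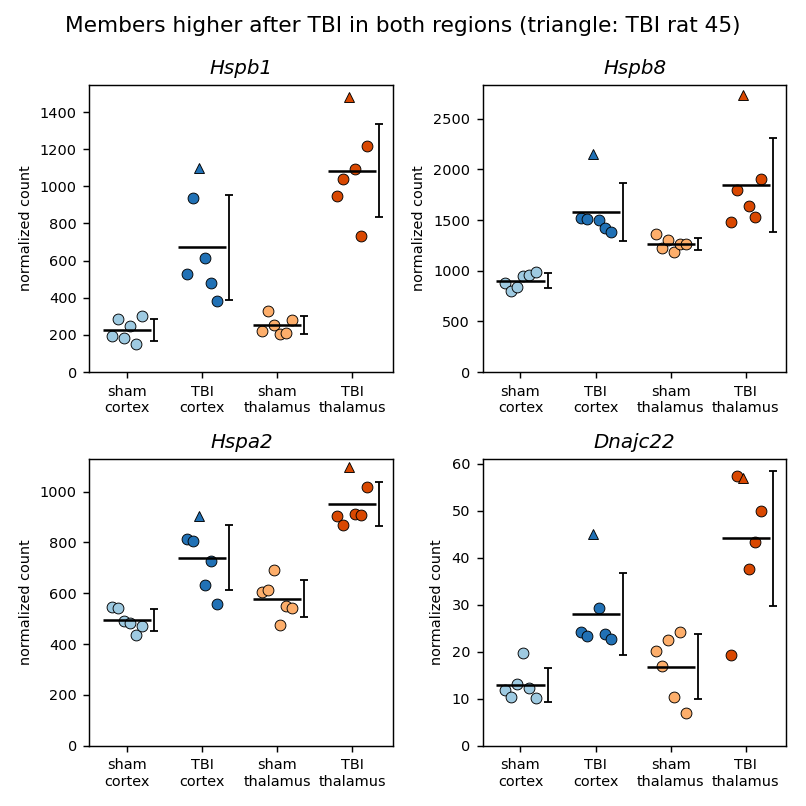
Normalized count of Hspb1, Hspb8, Hspa2 and Dnajc22 in each of the 24 libraries, by group. Each point is 1 rat, triangles mark TBI rat 45, horizontal lines are group means and bars 1 SD (n = 6). Hspb1 in TBI thalamus runs from 733 to 1479, above all sham values, and only Dnajc22 in thalamus has overlapping groups.

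Of the 11 tested HSP70 genes, Hspa2 rose in both regions. Hspa2 (chr6:108843647-108846300), an HSP70 gene known for its role in sperm formation and also transcribed in brain, ranged from 436 to 545 with a median of 486 in sham cortex and from 559.5 to 903 with a median of 766 in TBI cortex. In thalamus it ranged from 474 to 691 with a median of 577 in sham and from 867 to 1096 with a median of 910.4 in TBI rats. No TBI value lay within the sham range in either region. Log2 fold changes were 0.57 (SE 0.10, adjusted p = 0.00114) and 0.72 (SE 0.088, adjusted p = 3.39e-05), and without rat 45 they were 0.51 (adjusted p = 0.00255) and 0.68 (adjusted p = 5.61e-05). Hspa12b, an atypical HSP70 gene of endothelium, had log2 fold changes of 0.15 (SE 0.10, adjusted p = 0.302) and 0.22 (SE 0.10, adjusted p = 0.105), and of 0.11 (adjusted p = 0.497) and 0.15 (adjusted p = 0.214) without rat 45.

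The 3 HSP110 genes, which exchange nucleotide on HSP70, fell together, as did Hspa12a. Hspa12a, an atypical HSP70 gene, had the largest fall of all tested members in thalamus. It ranged from 21107 to 28544 with a median of 24869 in sham thalamus and from 11754 to 17177 with a median of 15626 in TBI thalamus, and from 13793 to 14892 with a median of 14601 in sham cortex and from 10534 to 11978 with a median of 11168 in TBI cortex, with no overlap in either region. Its log2 fold changes were -0.71 (SE 0.10, adjusted p = 9.09e-05) in thalamus and -0.37 (SE 0.043, adjusted p = 3.21e-05) in cortex. The interaction was -0.34 (SE 0.11, adjusted p = 0.0595), and with the rat as block its adjusted p was 0.0338. The locus (chr1:287309692-287490511) joins the names Eno4 and Hspa12a, so the 2 genes were counted together in it. Rat 45 held the lowest thalamic value, and without it the thalamic change was -0.64 (adjusted p = 5.75e-05). Other loci with joined names were those of Dnaja1 and Dnajc8, each with a microRNA, and of Dnajc4, with Vegfb.

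Hspa4l ranged from 14537 to 20717 with a median of 17656 in sham thalamus and from 11538 to 13861 with a median of 12482 in TBI thalamus, with no overlap. In cortex the range was 9104 to 11153 in sham and 6418 to 9149.8 in TBI rats, where TBI rat 63 alone lay within the sham range. The log2 fold changes were -0.35 (SE 0.074, adjusted p = 0.00284) in cortex and -0.48 (SE 0.084, adjusted p = 0.000528) in thalamus. Hspa4 ranged from 12040.1 to 13868 with a median of 13053 in sham cortex and from 9640.1 to 11818 with a median of 10743 in TBI cortex, and from 14676 to 17196 with a median of 15998 in sham thalamus and from 12384 to 14540.0 with a median of 13121 in TBI thalamus. These groups did not overlap, and the changes of -0.27 (SE 0.053, adjusted p = 0.00199) and -0.26 (SE 0.057, adjusted p = 0.00265) were nearly equal in size. Hsph1, the inducible HSP110 whose promoter holds the run of 3 units shown above, ranged 14255 to 16174 in sham and 11687 to 14676 in TBI cortex and 18201 to 22814 and 14412 to 18322 in thalamus. In each region 5 of 6 TBI rats lay below all sham rats, with log2 fold changes of -0.24 (SE 0.057, adjusted p = 0.00587) and -0.38 (SE 0.077, adjusted p = 0.00164).

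Hspa5, Hspa9, Hspa13, Hspa14 and Hspa1l were not called in either region. Hspa5, the HSP70 of the endoplasmic reticulum known as BiP, ranged from 11429 to 20688 with a median of 13131 in TBI cortex, beside 12802 to 15971 in sham cortex, and from 14863 to 29830.4 with a median of 16472 in TBI thalamus, beside 15841 to 22087 in sham thalamus. Both high values were rat 45, the other 5 TBI rats reaching at most 14616 and 17957. The log2 fold changes were -0.045 (SE 0.11, adjusted p = 0.789) and 0.013 (SE 0.14, adjusted p = 0.953) with rat 45 and -0.16 (adjusted p = 0.0995) and -0.13 (adjusted p = 0.217) without it. Hspa9, the mitochondrial HSP70, had log2 fold changes of -0.13 (SE 0.052, adjusted p = 0.0699) and -0.13 (SE 0.049, adjusted p = 0.0511), and its call depended on the settings. It passed in thalamus without rat 45, at -0.16 (adjusted p = 0.0112), under TMM scaling (adjusted p = 0.0477), with a mean of at least 50 (0.0475) and when all 24 libraries shared 1 fit (0.0392), and in cortex in that shared fit (0.048) and without TBI rat 63 (0.02). Hspa13, a microsomal HSP70 relative, had values of -0.10 (SE 0.064, adjusted p = 0.254) and 0.024 (SE 0.06, adjusted p = 0.787). Hspa14, a ribosome-associated HSP70 relative, had values of -0.055 (SE 0.063, adjusted p = 0.547) and -0.084 (SE 0.063, adjusted p = 0.323). Hspa1l, an HSP70 gene best known from testis, had 2 loci of identical span, and at the higher one its log2 fold changes were -0.13 (SE 0.11, adjusted p = 0.438) and -0.39 (SE 0.20, adjusted p = 0.142). In thalamus 5 of 6 TBI rats lay below all sham rats for Hspa1l, from 34.02 to 41.97, rat 45 stood at 73.2, and without rat 45 the log2 fold change was -0.55 (adjusted p = 0.0173).

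**Figure D3:**
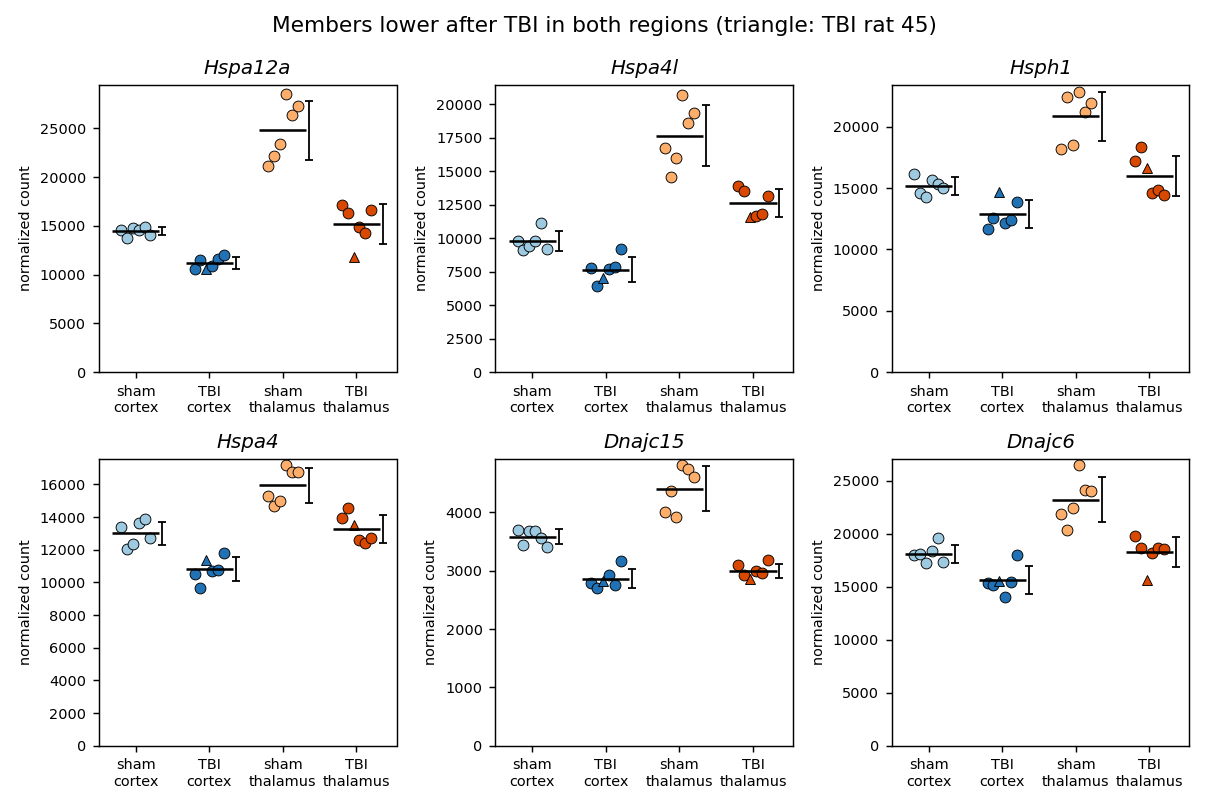
Normalized count of Hspa12a, Hspa4l, Hsph1, Hspa4, Dnajc15 and Dnajc6 in each of the 24 libraries, by group. Each point is 1 rat, triangles mark TBI rat 45, horizontal lines are group means and bars 1 SD (n = 6). Hspa12a in thalamus drops from a sham range of 21107 to 28544 to a TBI range of 11754 to 17177.

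Of the HSP90 genes, Hsp90aa1, the inducible HSP90 of the cytosol, fell in cortex, where it ranged 56602 to 69189.9 in sham and 47038 to 62388 in TBI rats, a log2 fold change of -0.22 (SE 0.069, adjusted p = 0.0243). That call was lost when sham rat 26, 38 or 50 was left out (adjusted p up to 0.0593). In thalamus its log2 fold change was -0.12 (SE 0.055, adjusted p = 0.12), and the interaction was 0.11 (SE 0.087, adjusted p = 0.493). Hsp90ab1, the constitutive HSP90, had log2 fold changes of -0.061 (SE 0.051, adjusted p = 0.392) and -0.013 (SE 0.054, adjusted p = 0.88). Hsp90b1, the HSP90 of the endoplasmic reticulum, had values of -0.081 (SE 0.072, adjusted p = 0.426) and 0.14 (SE 0.10, adjusted p = 0.287), and without rat 45 of -0.14 (adjusted p = 0.101) and 0.05 (adjusted p = 0.6). Its locus also carries a second, unnamed gene identifier. The mitochondrial chaperonin subunit Hspd1 fell in cortex by 0.18 on the log2 scale (adjusted p = 0.0433), a call lost under TMM scaling (adjusted p = 0.0514), without a filter on low loci, with edgeR and without any of 8 of the 12 rats. Its partner Hspe1 had log2 fold changes of -0.13 (SE 0.06, adjusted p = 0.115) and -0.13 (SE 0.068, adjusted p = 0.162). Hspbp1, a nucleotide exchange factor of HSP70, fell in thalamus, where it ranged from 2038 to 2928 with a median of 2655 in sham and from 1545 to 2528 with a median of 2041 in TBI rats. The ranges overlapped, and the log2 fold change was -0.37 (SE 0.11, adjusted p = 0.0169), beside 0.037 (SE 0.10, adjusted p = 0.81) in cortex. The interaction of Hspbp1 was -0.41 and did not pass.

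More DnaJ genes fell than rose after TBI. Of 39 tested, 1 was higher and 13 lower in cortex, and 2 were higher and 12 lower in thalamus. The lower ones were 33.3% and 30.8% of the class, beside 14.9% and 20.9% of all loci. Class A, the full-length relatives of bacterial DnaJ, had 3 of 4 members lower in each region, class B 2 and 1 of 11 (18.2% and 9.09%, near or under the share of all loci), and class C 8 and 8 of 24. Dnajb1, the main inducible DnaJ partner of HSP70 in the cytosol, was not called, with log2 fold changes of -0.14 (SE 0.071, adjusted p = 0.154) and -0.16 (SE 0.083, adjusted p = 0.155).

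**Figure D4:**
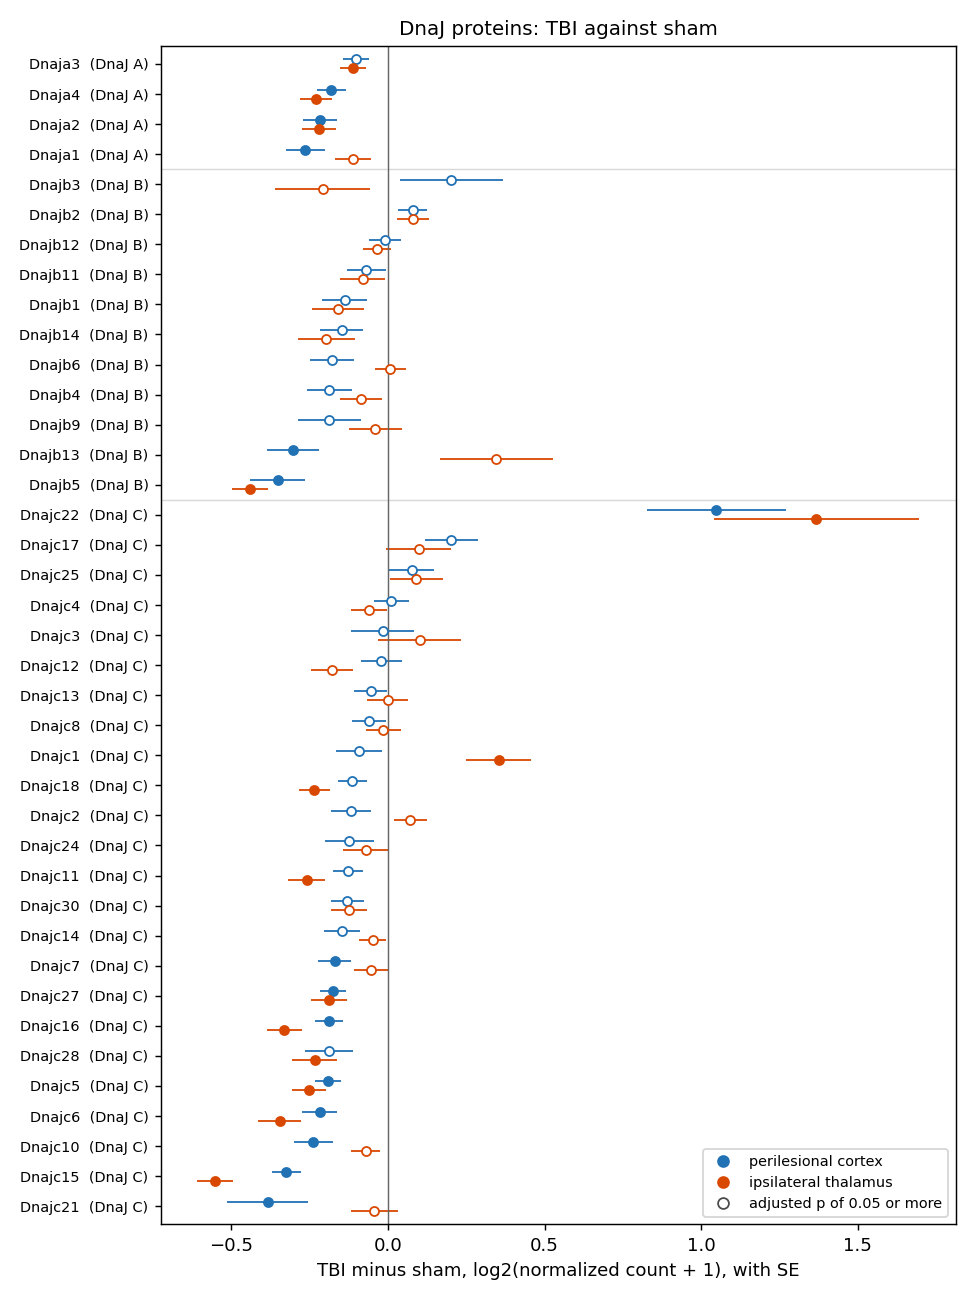
Change of each tested DnaJ gene after TBI, by class. The x axis is the log2 fold change, TBI minus sham, of normalized count + 1, points are estimates with 1 SE over 6 TBI and 6 sham rats, blue is perilesional cortex and orange ipsilateral thalamus, and filled points passed the threshold. Most points lie left of 0, Dnajc22 is far to the right in both regions and Dnajc15 is the lowest thalamic point at -0.55.

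Dnajc22 (chrX:115286884-115291876 as listed) was the DnaJ gene called higher in both regions. No RefSeq window was matched to it, so the name of this locus was not checked against RefSeq. It was scarce, ranging from 10.2 to 19.7 with a median of 12.1 in sham cortex and from 22.6 to 45.02 with a median of 24.0 in TBI cortex, without overlap. In thalamus it ranged from 6.92 to 24.2 with a median of 18.5 in sham and from 19.3 to 57.5 with a median of 46.6 in TBI rats, where TBI rat 22 lay within the sham range. Log2 fold changes were 1.05 (SE 0.22, adjusted p = 0.00293) and 1.37 (SE 0.33, adjusted p = 0.00507), and 0.91 (adjusted p = 0.00672) and 1.28 (adjusted p = 0.0111) without rat 45. Dnajc1, a J protein of the endoplasmic reticulum membrane, rose in thalamus, where it ranged from 218 to 292 with a median of 254 in sham and from 281 to 404 with a median of 311 in TBI rats, overlapping the sham range, with a log2 fold change of 0.35 (SE 0.10, adjusted p = 0.0157), while in cortex the value was -0.092 (SE 0.074, adjusted p = 0.378). Rat 45 held the highest thalamic value of Dnajc1, and without it the log2 fold change there was 0.28 (adjusted p = 0.0283).

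The DnaJ genes that fell in both regions included genes of mitochondria and of synaptic vesicles. Dnajc15, a J protein of the inner mitochondrial membrane, ranged from 3922 to 4815 with a median of 4484 in sham thalamus and from 2855 to 3179 with a median of 2973 in TBI thalamus. In cortex it ranged from 3409 to 3705 with a median of 3625 in sham and from 2712 to 3165 with a median of 2805 in TBI rats. Groups did not overlap in either region, and the log2 fold changes were -0.55 (SE 0.057, adjusted p = 7.67e-06) in thalamus and -0.32 (SE 0.047, adjusted p = 0.000185) in cortex. The fall was larger in thalamus by 0.23, with an adjusted p of 0.0531 that was 0.0307 with the rat as block. Dnajc6, auxilin, which strips clathrin from endocytosed vesicles, ranged from 20371 to 26448 with a median of 23211 in sham and from 15613 to 19798 with a median of 18599 in TBI thalamus, a log2 fold change of -0.35 (SE 0.069, adjusted p = 0.00153). In cortex it was -0.22 (SE 0.055, adjusted p = 0.00845), and TBI rat 63 lay within the sham range. Dnajc5, the cysteine string protein of synaptic vesicles, ranged from 16356 to 18008 with a median of 17468 in sham and from 14336 to 16175 with a median of 15260.2 in TBI cortex, and from 16233 to 17689 with a median of 17185 in sham and from 12389.8 to 16041 with a median of 14435 in TBI thalamus. Neither region had overlap for Dnajc5, with changes of -0.19 (SE 0.042, adjusted p = 0.00361) and -0.25 (SE 0.056, adjusted p = 0.003).

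Dnajb5 ranged 3167 to 3884 in sham and 2293 to 2685 in TBI thalamus with no overlap, a log2 fold change of -0.44 (SE 0.057, adjusted p = 4.93e-05). In cortex Dnajb5 ranged 5085 to 7182 in sham and 4244 to 5647 in TBI rats, with a change of -0.35 (SE 0.089, adjusted p = 0.00844) and 1 TBI rat, rat 45, within the sham range. Dnajc16 fell without overlap in thalamus, being 3831 to 4348 in sham and 2945 to 3671 in TBI rats, with log2 fold changes of -0.33 (SE 0.055, adjusted p = 0.000389) in thalamus and -0.19 (SE 0.046, adjusted p = 0.00715) in cortex. Dnaja4, of class A, ranged 4081 to 4527 in sham and 3546 to 4068 in TBI cortex with no overlap, a log2 fold change of -0.18 (SE 0.047, adjusted p = 0.0103). Dnajc27, a J protein with a GTPase fold, ranged 7620.4 to 8279.5 in sham and 6762 to 7549 in TBI cortex, again without overlap, a change of -0.18 (SE 0.04, adjusted p = 0.00496), and in thalamus its call of -0.19 (SE 0.057, adjusted p = 0.0181) was lost with edgeR (adjusted p = 0.076). Dnaja2, also of class A, had log2 fold changes of -0.22 (SE 0.054, adjusted p = 0.00801) and -0.22 (SE 0.054, adjusted p = 0.00614), and in each region 5 of 6 TBI rats lay below all sham rats.

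Other DnaJ genes were called in 1 region. Dnajc11, a mitochondrial J protein linked to cristae, ranged 2360.0 to 2577 in sham and 1762 to 2255 in TBI thalamus without overlap, a log2 fold change of -0.26 (SE 0.058, adjusted p = 0.00307), beside -0.13 (SE 0.049, adjusted p = 0.0613) in cortex. Dnajc10, a disulfide reductase of the endoplasmic reticulum, fell in cortex, being 7034 to 8145 in sham and 5338 to 7019 in TBI rats without overlap, -0.24 (SE 0.061, adjusted p = 0.0091), and the interaction was 0.17 (SE 0.076, adjusted p = 0.19). Dnaja1, the main class A partner of HSP70 in the cytosol, fell in cortex by 0.26 (adjusted p = 0.0061), with a thalamic value of -0.11 (SE 0.058, adjusted p = 0.156) and an interaction of 0.15 (SE 0.087, adjusted p = 0.315). Dnajc21, a factor of ribosome assembly, had a cortical log2 fold change of -0.38 (SE 0.13, adjusted p = 0.0377), a call lost without any of 8 of the 12 rats, among them sham rat 55, whose 1628 lay above the other sham rats (893 to 1148) and without which the value was -0.27. The remaining calls were those of Dnajc7, a J protein with TPR repeats, in cortex, -0.17 (SE 0.053, adjusted p = 0.0262), and in thalamus those of Dnajc18, -0.23 (SE 0.049, adjusted p = 0.00191), Dnajc28, -0.23 (SE 0.072, adjusted p = 0.0207), and Dnaja3, a mitochondrial J protein, -0.11 (SE 0.041, adjusted p = 0.0452). Of these, Dnajc7 was lost without sham rat 26, 38 or 50 or TBI rat 22 (adjusted p up to 0.0665), Dnajc28 with edgeR (0.0723) and without sham rat 55 (0.0523), and Dnaja3 under TMM scaling, without a filter on low loci, with edgeR and without any of 9 rats. Dnajc18 ranged 6025 to 6611 in sham and 4929.9 to 5739 in TBI thalamus without overlap. Of Dnaja1, Dnajc10, Dnajc11 and Dnajc21, none was shown to change by a different amount in the other region.

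Groups of TBI and sham rats that did not overlap, among called members, numbered 4 higher and 7 lower in cortex, where 6.95% and 5.36% of all tested loci were of that kind, and 3 higher and 11 lower in thalamus, where the shares were 7.44% and 10.6%.

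The interaction, fitted to the 24 libraries, was higher past the threshold in 2 of 62 members, against 2.72% of all loci above and 4.54% below 0. By limma no member had a lower value past the threshold, and at an unadjusted p under 0.05 there were 7 higher and 3 lower. EdgeR called 2 higher and 0 lower. With the rat as block 2 members were called higher and 2 lower, the latter being Hspa12a and Dnajc15. Dnajb13, an axonemal protein of cilia and sperm tails, fell in cortex, where it ranged from 284 to 370.3 with a median of 346 in sham and from 241 to 303 with a median of 275 in TBI rats, a log2 fold change of -0.30 (SE 0.082, adjusted p = 0.0124), while in thalamus it ranged 86.1 to 168 in sham and 113 to 200.2 in TBI rats, with a change of 0.35 (SE 0.18, adjusted p = 0.151). The interaction was 0.65 (SE 0.20, adjusted p = 0.0493). The cortical call was lost when all 24 libraries shared 1 fit (adjusted p = 0.116). The interaction was lost without any 1 of 9 of the 12 rats, rat 45 among them, with adjusted p up to 0.137. For Dnajc1 the interaction was 0.44 (SE 0.12, adjusted p = 0.0293), and it was lost without any 1 of 6 rats, rat 45 not among them, with adjusted p up to 0.0786. Sham rat 34 held the highest sham thalamic value of Dnajb13, and the ependymal and cilia markers summed to 2657 in that library against at most 2027 in the other sham thalamic libraries. In cortex, 4 of 8 tested ependymal and cilia markers rose after TBI and none fell, while Dnajb13 fell, and the part of these cells in the Dnajb13 values was not tested.

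**Figure D5:**
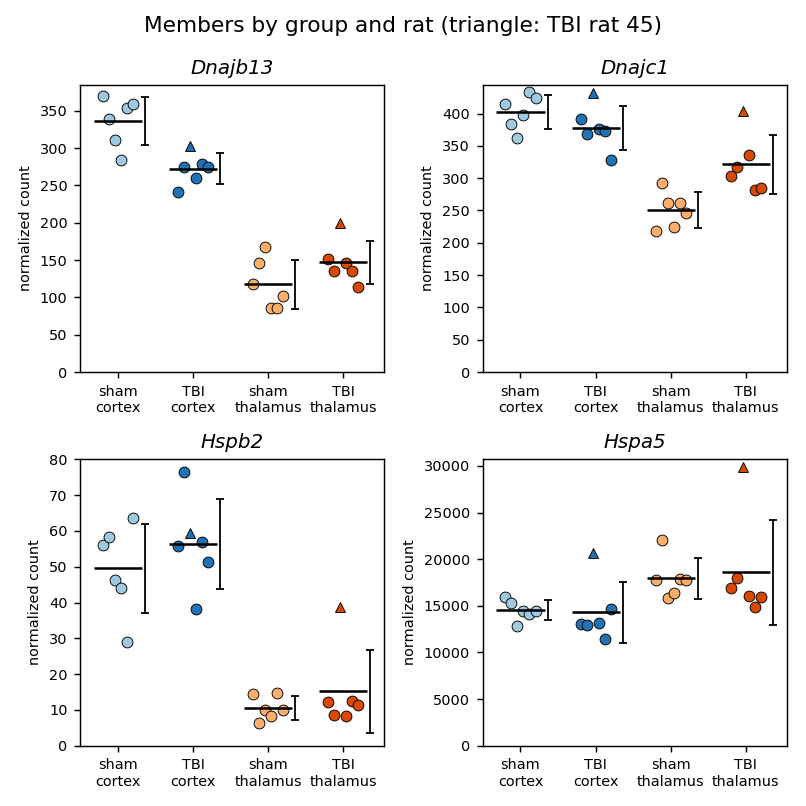
Normalized count of Dnajb13, Dnajc1, Hspb2 and Hspa5 in each of the 24 libraries, by group. Each point is 1 rat, triangles mark TBI rat 45, horizontal lines are group means and bars 1 SD (n = 6). Dnajb13 and Hspb2 are higher in cortex than in thalamus, and rat 45 is the highest point of both TBI groups for Hspa5, at 20688 and 29830.

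In sham rats 26 of 62 members were higher and 13 lower in thalamus than in cortex, against 33.9% and 28.3% of all loci. The HSP70 class had 7 of 11 members higher in thalamus and 2 lower. The 3 largest excesses in thalamus were those of Dnajc12, a J protein that attends aromatic amino acid hydroxylases, Hspa4l and Hspa12a. Dnajc12 ranged from 542 to 630.5 with a median of 595 in sham cortex and from 1203 to 1349 with a median of 1316 in sham thalamus, a log2 difference of 1.13 (SE 0.051, adjusted p = 2.57e-11) without overlap. Hspa4l differed by 0.85 (SE 0.079, adjusted p = 1.29e-07) and Hspa12a by 0.77 (SE 0.068, adjusted p = 7.04e-08), also without overlap. The 3 largest deficits in thalamus were Hspb2, -2.13 (SE 0.24, adjusted p = 1.19e-06), Dnajb13, -1.55 (SE 0.15, adjusted p = 2.94e-07), and Hspb7. Hspb7 passed the minimum mean only through cortex, so its levels are given without a test, 7.55 to 24.9 in sham cortex and 1.98 to 10.6 in sham thalamus, which overlap. It is counted among the 13, but for that reason its call is not taken as a result. That call was also lost without sham rat 38 or 55. Beside Hspb2 and Hspb7, 6 of 7 mural cell and muscle markers were lower in sham thalamus (summed level 12361 to 16658, against 15669 to 18931 in cortex), and beside Dnajb13, 8 of 9 ependymal and cilia markers were higher there and 1 was lower. The part of these cells in the members' differences was not tested. Hspb8 and Hsph1 were higher in sham thalamus by 0.50 and 0.45, and for Hspb1 the difference was 0.16 (SE 0.17, adjusted p = 0.41).

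The members' changes stood beside changes of cell markers. Of all tested loci, 14.3% rose and 14.9% fell in cortex, and 14.5% rose and 20.9% fell in thalamus. Of 15 neuron markers 12 fell in cortex and 13 in thalamus and none rose, the summed level being 524606 to 563346 in sham and 390790 to 488649 in TBI cortex, and 413172 to 496872 and 274447 to 345659 in thalamus. Of 9 astrocyte markers 6 rose in each region and 1 fell in cortex, with summed levels of 326188 to 352717 and 371848 to 421850 in cortex and 229197 to 254790 and 355727 to 418846 in thalamus. Of 14 microglia markers 13 rose in cortex and 14 in thalamus, the summed level being 24120 to 26583 in sham and 33818 to 39339 in TBI cortex, and 26071 to 34547 and 53539 to 66514 in thalamus. Fibroblast and meningeal markers rose in cortex for 8 of 8 and in thalamus for none, and mural cell and muscle markers rose for 1 of 7 and 4 of 7. None of the neuron, astrocyte and microglia lists had a marker at or under 3 fragments throughout a group. The part of these cells in the rises of Hspb1, Hspb8 and Hspa2 and in the falls of the other members was not tested.

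Partner genes outside the rule were described by lists. Of all tested loci, 14.3% rose and 14.9% fell in cortex, with a median of -0.0096. In thalamus 14.5% rose and 20.9% fell, with a median of -0.023. Of 25 co-chaperones of HSP70 and HSP90, 1 rose and 8 fell in cortex and 1 rose and 14 fell in thalamus, with medians of -0.13 and -0.18. The riser was Bag3 in both regions. Tomm34, which holds HSP70 and HSP90 at the mitochondrial import site, had log2 fold changes of -0.21 (adjusted p = 0.00548) and -0.39 (adjusted p = 0.000389), and Tomm70a, an import receptor, -0.30 (adjusted p = 0.00561) and -0.24 (adjusted p = 0.0132). Of the 6 tested heat shock factors and regulators, Hsf1 had log2 fold changes of 0.13 (adjusted p = 0.353) and -0.078 (adjusted p = 0.482), Hsf4 rose in cortex, 0.48 (adjusted p = 0.0132), and Fbxw7, a ubiquitin ligase subunit that degrades HSF1, fell in both regions, -0.48 (adjusted p = 1.11e-05) and -0.50 (adjusted p = 0.000141). Of the other heat-inducible genes, 3 of 11 rose and 4 fell in cortex, and 3 of 10 rose and 3 fell in thalamus, Bag3 being on this list too. Hmox1, heme oxygenase 1, rose by 1.08 (adjusted p = 0.000137) in cortex and 1.33 (adjusted p = 1.32e-06) in thalamus, Cryaa, alpha A crystallin tested in cortex alone, rose there by 1.19 (adjusted p = 0.0158), and Cryab, the small heat shock protein alpha B crystallin, had 0.19 (adjusted p = 0.0948) and 0.34 (adjusted p = 0.0393).

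Folding genes of other compartments were described in the same way, beside the same shares of all loci (14.9% lower in cortex and 20.9% in thalamus). Of 14 CCT chaperonin and prefoldin genes none rose, 2 fell in cortex and 1 in thalamus, the cortical ones being Tcp1, -0.18 (adjusted p = 0.0327), and Cct8, -0.16 (adjusted p = 0.0451), and the thalamic one Pfdn6, a prefoldin subunit, -0.25 (adjusted p = 0.00884). Of 15 tested genes of folding and the unfolded protein response in the endoplasmic reticulum, 3 rose and 1 fell in cortex and 3 rose and 3 fell in thalamus. Sdf2l1, a partner of BiP, rose by 0.45 (adjusted p = 0.0115) and 0.41 (adjusted p = 0.0367) on the log2 scale, while Atf4, a stress transcription factor, had log2 fold changes of -0.27 (adjusted p = 0.000674) and -0.26 (adjusted p = 0.00335). Of 10 genes of mitochondrial folding and import, none rose, 2 fell in cortex and 5 in thalamus, among them the protease subunit Afg3l2, -0.17 (adjusted p = 0.00944) and -0.27 (adjusted p = 0.000986).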

How the data were processed

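Stranded poly(A) RNA libraries from 24 tissue samples, from 6 TBI and 6 sham-operated rats in 2 regions, had been aligned with TopHat2 2.0.11 and Bowtie2 2.2.2 and assembled into transcripts with Cufflinks 2.2.1, by the study's methods and the submitters' processing notes. The notes name Cuffdiff and the Rnor_5.0 build, while the methods name RGSC3.4 as the genome and Rnor_5.0 as the annotation. Coordinates are given as listed. The values the authors deposited are a signal, counts of fragments per locus divided by a size factor of each library. Steps of the values gave the whole fragments back (100% of values up to 2000 fragments, tolerance 0.1), 30568927 to 54608922 per library. Counting limits use a floor of 3 fragments and cover counting error only. Of 42334 loci, 15693 without a gene name (1.90% to 2.23% of counts) were left out, and every column was matched to a sample.

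Loci with a mean of at least 10 were tested on log2(value + 1) with limma 3.58.1 (R 4.3.3), moderated, two-sided, with Benjamini-Hochberg adjustment over all loci tested, separately in cortex and thalamus (TBI against sham), over 24 libraries for the interaction, and in sham rats between regions. P-values measure the spread between rats. Fragments were also tested with edgeR 4.0.16 quasi-likelihood, which called 4435 loci in cortex and 5122 in thalamus. Alternatives were TMM scaling, other filters and pseudocounts, summed loci, 1 fit of 24 libraries, a block for the rat, and each rat left out. The same animals gave both regions, so the rat number pairs the libraries. The 2 libraries of a rat deviated together, with a median correlation across loci of 0.187 (10 of 12 rats over 0.1), against -0.033 between different rats. Scripts were tested on simulated data. Tables and figures used Python 3.11.15, pandas 2.3.3, numpy 2.4.6 and matplotlib 3.10.9.

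The members and gene lists were chosen with earlier results of these data known. Named with values were all tested members outside the DnaJ class, and of the DnaJ class those past the interaction test, the 6 largest rises and falls past the threshold in each region, those past it whose TBI and sham values did not overlap (up to 12 members per region by size), and the 3 with the largest excess in either region of sham rats. Up to 4 genes per list were named by size. Dnaja2, Dnaja3, Dnajb1, Dnajc7, Dnajc18, Dnajc28 and Hsf1 were named outside this rule, after their values were seen.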

Additional observations from a re-analysis of the deposited data

Results flagged for a closer look

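For 19 of 176 pairs of a named member and a group (10.8%), 1 rat stood away from the other 5 by a gap that exceeds the 95% critical value of Dixon's test (0.625 of the range for 6 samples). Chance gives such a gap in about 1 in 20 groups. Members that were not named were not examined for it, so a rat may stand apart in further members. Rat 45 was that rat in 11 of the 19, as normalized counts with the range of the other 5 TBI rats. In TBI cortex these were Hspa5 at 20688 (11429 to 14616), Hspb8 at 2147 (1386 to 1515), Hspb7 at 38.2 (13.1 to 19.0) and Dnajc22 at 45.02 (22.6 to 29.2). In TBI thalamus they were Hspa5 at 29830 (14863 to 17957), Hsp90b1 at 27052 (17690 to 20337), Hspb8 at 2736 (1483 to 1904), Hspa12b at 579 (415 to 469), Hspa1l at 73.2 (34.02 to 41.97), Hspb2 at 38.6 (8.45 to 12.4) and, below the others, Dnajb5 at 2293 (2548 to 2685).

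The other 8 came from 7 other rats. In sham cortex, Dnajc21 was at 1628 in rat 55 (others 893 to 1148), Dnajc22 at 19.7 in rat 38 (10.2 to 13.2) and Hspa4l at 11153 in rat 50 (9105 to 9814). In sham thalamus, Hspa5 was at 22087 in rat 32 (15841 to 17893), Dnajc7 at 5830.4 in rat 32 (4915 to 5243) and Hspb11 at 341 in rat 34 (415 to 444). In TBI cortex, Dnajc6 was at 18027 in rat 63 (14044 to 15504) and Hspb6 at 1206 in rat 52 (1030 to 1091).

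The TBI effect differed between thalamus and cortex by the interaction test for Dnajb13, by 0.65 on the log2 scale, and for Dnajc1, by 0.44. Both calls were fragile, that of Dnajb13 being lost without any 1 of 9 rats and that of Dnajc1 without any 1 of 6. With the rat as block, Hspa12a and Dnajc15 also passed, with lower values in thalamus.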

How the results depend on the processing

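Of 56 calls counted for the 44 named members, 45 held under every alternative run and none changed direction. Between regions, this count took in only the 3 largest differences each way and those of Hspb1, Hspb8 and Hsph1. The 11 calls that did not hold were Hspd1, Hsp90aa1, Dnajc7, Dnajc21 and Dnajb13 in cortex, Dnaja3, Dnajc27 and Dnajc28 in thalamus, Hspb7 between regions, and the interactions of Dnajb13 and Dnajc1. The call of Hspb7 is not taken as a result. Outside this count, Hspa2, Hspa12b, Hspbp1 and Dnajb11 also lost their calls between regions in some settings. Counts of called members stayed within 1.5 times in cortex (higher 3 to 5, lower 16 to 29), in thalamus (higher 4 to 6, lower 14 to 19) and between regions in sham rats (higher 23 to 27, lower 11 to 15). The cortical 29 was without TBI rat 63. For the interaction, 2 members were higher and 0 lower. These became 1 higher with no filter, 1 lower at a mean of at least 50, and 2 lower with the rat as a block. Leaving out 1 rat gave 0 to 2 higher and 0 to 2 lower, with 0 higher without sham rat 26, 38, 50 or 55 or TBI rat 24 or 52. In the comparison of regions in sham rats, the block left the counts at 26 higher and 13 lower. Values that turned sign were all of members not called. With edgeR, thalamus gave 0.0045 for Dnajc21, 0.039 for Hsp90ab1 and 0.011 for Hspb6. Leaving out 1 rat took cortical values of Dnajc12 from -0.052 to 0.013 (TBI 52), of Hspa5 from -0.16 to 0.014 (TBI 56), of Hspb11 from -0.011 (TBI 63, and -0.010 without sham 32) to 0.050, and of Hspbp1 from -0.034 (sham 50, and -0.027 without TBI 24) to 0.086. It took thalamic values of Hsp90ab1 from -0.036 to 0.0080 (TBI 63, and 0.0030 without sham 32), of Hspa13 from -0.014 (sham 32, and -0.011 without TBI 45) to 0.049, and of Hspa5 from -0.13 (TBI 45, and -0.021 and -0.012 without sham 34 and 38) to 0.075. The cause was not tested. Of the loci called for the interaction, limma put 62.5% lower and edgeR 48.1%. Members with means near 10, such as Hspb7 and Hspb2, are limited by depth.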

Other observations

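The injured rats differed in how far their members lay from sham. In cortex TBI rat 63 was the rat nearest to sham in 16 of the 20 members called lower and in 4 of the 4 called higher, and among all loci called it was nearest in 57.7% of the lower and 47.8% of the higher. TBI rat 45 was farthest from sham in 4 of the 4 members called higher in cortex, beside 52.3% of all loci called higher. In thalamus rat 45 was farthest in 12 of the 17 members called lower and in 4 of the 5 called higher, beside 51.2% and 45.4% of all loci called, while rat 63 was nearest to sham in 1 of the 17.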
